A study of Mus musculus with 48 samples.

Results

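The abundant long noncoding RNAs (lncRNAs) of mouse splenic regulatory T cells (Tregs) were described in 16 groups of libraries. Members were selected on their measured Treg level. They were the genes that the authors' annotation typed as lncRNA and whose mean over the 32 Treg libraries was at least 5 CPM (a gene's count divided by the library total, times 1000000), which gave 192 of 1776 lncRNAs, among 53345 genes in the matrix. Because the Treg level chose the members, their level in Tregs, alone and against other cells, is given as a description. The mean takes in the treated groups, so the comparisons among treatments are not free of the rule either. A gene that was low after PBS could pass through the groups in which it was high. In isotype PBS mice 17 members were under 5 CPM, among them Gm17767, 9630013D21Rik and Miat, and 10 were in PBS mice with MHC II block. Counts in Tregs are therefore also given over the members at 5 CPM or more in each group compared, a limit chosen after seeing the data. In Tregs, for a member under 5 CPM in a group compared, and for Gm17767 in all comparisons, log2 values are given as a description with no p. The list was hardly moved by the way the mean was taken. It held 191 genes with library sizes scaled by TMM (trimmed mean of M values) and 191 with empty cells of the matrix read as 0.

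Female C57BL/6 mice of 8 to 12 weeks, an inbred strain with no added allele, had been given 1 subcutaneous injection on day 0 of PBS, of wild type (WT) IL-2 or of an IL-2 mutein, with 25 µg for each protein, and spleens were taken on day 4. H16R carries 1 substitution, and the 3x mutein carries the substitutions D20A, V91K and M104V. All mice also received 2 intraperitoneal doses of 500 µg of an antibody, which was either an isotype control or one that blocks MHC class II, so every control mouse carried an antibody as well. Tregs were the bead-bound CD25+ fraction of 4 mice in each of 8 groups, and conventional T cells (Tcons) were the CD25- flow-through of 2 of those mice, so both fractions are enrichments from 1 kit and not pure sorts. The labels give 2 isotype WT IL-2 Treg libraries the same mouse number. They were kept apart as replicates 3a and 3b, and whether they came from separate mice is uncertain.

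IL-2 is the cytokine that Tregs need for survival and for expression of Foxp3, and it acts through its receptor on the transcription factor STAT5. The cells are otherwise held by signals from the T cell receptor, which sees peptide on MHC class II. A lncRNA is a transcript without a long reading frame. Some act in the nucleus, as Xist does when it coats the inactive X chromosome or Neat1 when it builds paraspeckles, and others are mainly the carriers from which small nucleolar RNAs (snoRNAs) or microRNAs are cut. Most members have no known role, and many lie against a coding gene with which they share reads or a promoter.

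Sequences are shown for the members on which the results turn. Mir17hg, on chr14:115042879-115046727 (GRCm38, + strand), is the host transcript of the miR-17 to miR-92 cluster and holds 11 mature microRNAs with 9 seeds, and Mir22hg on chr11:75461539-75466676 (+ strand) holds 2. The main arms are printed 5′ to 3′ from RefSeq (GRCm38.p6), with the seed, bases 2 to 8, in capitals, because these are the mature products encoded in the hosts. miR-17-5p and miR-20a-5p share a seed, as do miR-19a-3p and miR-19b-3p, and the seed of miR-18a-5p is its own.
miR-17-5p: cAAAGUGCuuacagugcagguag
miR-20a-5p: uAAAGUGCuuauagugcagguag
miR-18a-5p: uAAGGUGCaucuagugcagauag
miR-19a-3p: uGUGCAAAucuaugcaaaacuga
miR-19b-3p: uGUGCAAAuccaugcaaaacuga
miR-92a-3p: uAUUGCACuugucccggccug
miR-22-3p: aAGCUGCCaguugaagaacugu

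The promoters of the lncRNA with the largest rise, Gm17767, and of the snoRNA host with the largest fall after H16R and 3x, Snhg15, are given from 250 bases before to 50 bases after the RefSeq start (GRCm38.p6, chr1:51596669-51596968 and chr11:6528711-6529010, both on the - strand). Capitals mark the letters CACGTG, the E-box that the Myc family can bind, which were searched on both strands together with TTCNNNGAA, the core of the sites that STAT factors bind.
Gm17767: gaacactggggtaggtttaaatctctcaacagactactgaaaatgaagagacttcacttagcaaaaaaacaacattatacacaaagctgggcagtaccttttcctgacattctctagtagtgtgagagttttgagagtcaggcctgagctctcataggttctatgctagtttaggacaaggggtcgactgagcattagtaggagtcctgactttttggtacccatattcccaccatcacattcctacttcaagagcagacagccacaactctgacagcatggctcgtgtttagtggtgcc
Snhg15: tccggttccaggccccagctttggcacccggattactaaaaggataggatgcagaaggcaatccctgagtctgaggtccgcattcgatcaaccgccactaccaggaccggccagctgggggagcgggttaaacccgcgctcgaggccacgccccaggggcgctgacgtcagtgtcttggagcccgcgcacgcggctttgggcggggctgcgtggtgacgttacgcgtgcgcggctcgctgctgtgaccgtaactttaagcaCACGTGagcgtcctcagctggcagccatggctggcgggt

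Gm17767 held neither motif in this window and Snhg15 held 1 CACGTG. Windows were at hand for 103 members (120 windows). TTCNNNGAA was in 4.17% of the members' windows, from 5 members, and in 8.3% of all 32851 windows, while CACGTG was in 10.0% of the members' windows, from 11 members that included Snhg15, Lncpint and Firre, and in 7.15% of all windows. These are matches of letters and not sites.

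Library totals were 18279780 to 51238377 expected counts in Tregs and at most 51953840 in Tcons, and isotype PBS Treg libraries, at 18279780 to 34581246, had the 3 lowest totals. The summed level of 7 Treg markers (Foxp3, Il2ra, Ikzf2, Ctla4, Tnfrsf18, Cd4 and Cd3e) was 3235 to 5653 CPM in Treg libraries and 1009 to 2630 CPM in Tcon libraries, without overlap, and within isotype Tregs its median went from 3855 CPM after PBS to 5219 CPM after 3x. In Tregs, 6 B cell markers summed to 30.2 to 151 CPM except in isotype PBS replicate 1, at 682 CPM, and in replicate 1 of the mice given WT IL-2 with MHC II block, at 624 CPM, and the second of these also had 536 CPM of myeloid markers. These 2 libraries stand apart. B cell markers moved with treatment too, from a median of 149 CPM in isotype PBS Tregs to 34.4 after H16R and 34.1 after 3x, and from 92.3 CPM to 64.6 CPM after 3x with MHC II block. The part of these cells in the lncRNA results was not tested. Counts of members in Tregs are also given without both libraries. In bulk RNA, fewer cells of a kind and less RNA per cell cannot be told apart.

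Together the 192 lncRNAs took a small share of the Treg RNA, with a median of 0.759% of the counts of a library (0.595% to 0.967%). The share was concentrated, since Malat1, the nuclear speckle RNA, held 22.5% of the members' summed mean CPM, Xist 15.3%, and the 10 highest members 58.7%. Only 12 members had a mean of at least 100 CPM, 36 lay between 20 and 100 CPM, and 144 lay between 5 and 20 CPM. Without Malat1 and Xist the members held a median of 0.468% of the counts.

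Malat1 varied widely between libraries of a group. In isotype Tregs it stood at 1549, 2301, 2086 and 2578 CPM in the PBS mice, at 1118, 1931, 947 and 2989 CPM after WT IL-2, at 1545, 1776, 1130.0 and 1686 CPM after H16R and at 1715, 1786, 1296 and 1336 CPM after 3x. Mice with MHC II block had 2663, 1943, 2179.9 and 1908 CPM after PBS and 1161, 1665, 1532 and 1032 CPM after 3x. The WT IL-2 libraries of the isotype arm alone spanned 947 to 2989 CPM, which covers every other Treg library except 1 H16R mouse with MHC II block at 774 CPM. Both ends of this span are replicates 3a and 3b, which share a mouse number and may not be separate mice. The others of that group were at 1118 and 1931 CPM. Only 3x with MHC II block passed the test against its PBS group among the 6 comparisons, with a log2 fold change of -0.59 ± 0.28 (adjusted p = 0.074). Xist lay between 767 and 1669 CPM over the 32 Treg libraries.

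Per length, the order was another. By FPKM (fragments per kilobase of transcript, scaled by library), the highest member was AW112010, a transcript induced in inflammation, at 359 ± 82.8 FPKM (SD, n = 32), followed by the snoRNA host Gas5 at 286 ± 34.2 FPKM, 2410006H16Rik at 253 ± 31.3 FPKM and Malat1 at 249 ± 77.6 FPKM. The means of 2410006H16Rik and Malat1 differed by less than their spread. Gm29562 (177 FPKM) and Gm48161 (164 FPKM) followed, then Gm47283 and AU020206, both at 96.9 FPKM, Snhg1 (81.4 FPKM) and AI662270 (70.9 FPKM). Gm47283 is placed on chromosome Y by GENCODE vM21, although all mice were female, so its counts are reported as uncertain.

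At the lower end the members just inside the threshold were Gm42658, at 5.13 CPM, R74862, A730017L22Rik, Gm17024 and Gm17354, at 5.02 CPM, and those just outside it were Gm17017, at 4.99 CPM, Zbtb11os1, Gm16638, Dleu2, at 4.87 CPM, and Gm20186. After the filters, 189 members were tested in Tregs among 14978 genes and 191 in Tcons among 14976 genes. Gm38102, Gm2682 and Lockd were not tested in Tregs, because cells of the matrix were empty for them.

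All 3 molecules changed the lncRNAs of Tregs in isotype mice, in both directions. WT IL-2 changed 78 of 189 members (49 higher and 29 lower, 41.3%), where 45.6% of all genes tested were called. H16R changed 98 (58 higher and 40 lower, 51.9%, against 59% of all genes), and 3x changed 94 (63 higher and 31 lower, 49.7%, against 58%). The calls are edgeR quasi-likelihood tests at an adjusted p under 0.1, and the 3 comparisons share their PBS mice. Most changes were small, since only 3, 8 and 5 members moved by 2-fold or more, where 5.61%, 10.6% and 11.5% of all genes did, and the median log2 fold change of all members was 0.05, 0.05 and 0.09. The split depended on scaling. With total counts alone, H16R gave 42 higher and 47 lower and 3x gave 43 and 44, and limma on FPKM gave 46 and 45 or 47 and 44 for 3x. Without both libraries that stand apart, the counts were 82, 93 and 88, and the WT IL-2 count was 73 or 75 without replicate 3a or 3b. Among members at 5 CPM or more in both groups, 63 of 164 were called after WT IL-2 (38 higher and 25 lower), 77 of 156 after H16R (46 and 31) and 74 of 160 after 3x (49 and 25).

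**Figure D1:**
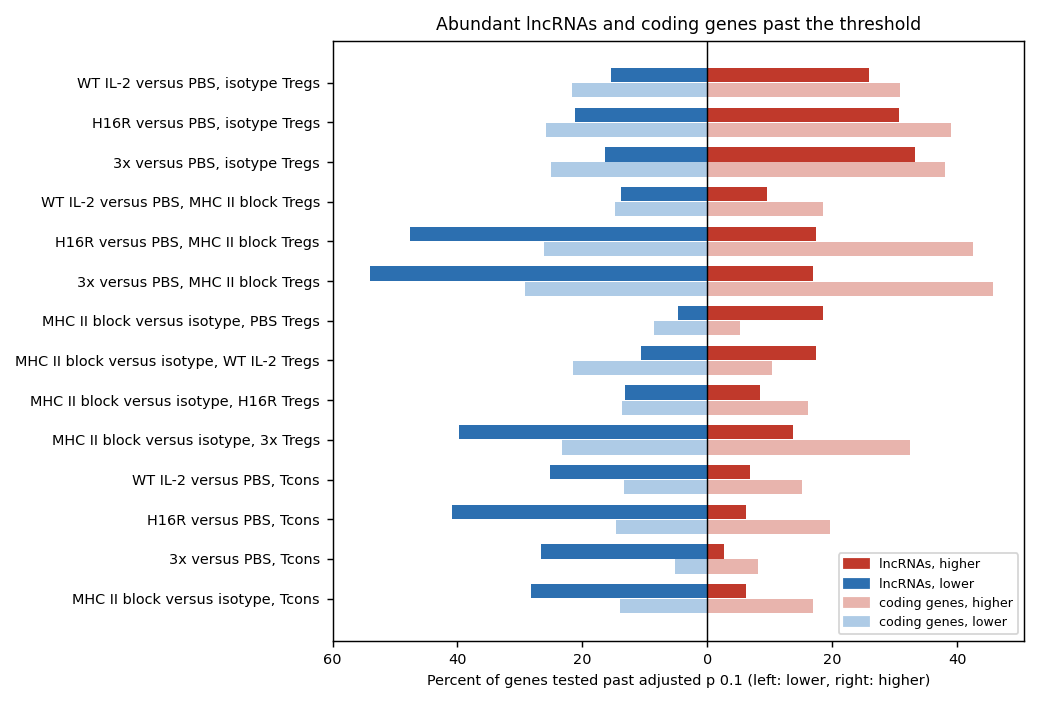
Percent of genes past adjusted p 0.1 in edgeR's quasi-likelihood test for each comparison, lower to the left in blue and higher to the right in red, for the abundant lncRNAs (dark bars, 189 in Tregs and 191 in Tcons) and for coding genes with a mean of at least 5 CPM (light bars). Lower calls exceed higher calls for the lncRNAs after WT IL-2, H16R and 3x with MHC II block (26 against 18, 90 against 33 and 102 against 32). They also do so between the antibodies after H16R and 3x (25 against 16 and 75 against 26) and in all 4 Tcon comparisons.

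Gm17767, an intergenic lncRNA on chr1:51507086-51596718 (- strand) whose role is not known, had the largest log2 fold change of the members with each molecule. It reached the mean of 5 CPM only through the H16R and 3x groups, so the rule favours this place. It stood at 0.376, 0.347, 0.815 and 0.602 CPM in the 4 PBS mice, 3.50, 2.80, 3.02 and 2.86 CPM after WT IL-2, 7.80, 4.77, 9.57 and 5.23 CPM after H16R and 12.3, 5.47, 8.34 and 10.5 CPM after 3x. Every treated mouse was above every PBS mouse, and every H16R and 3x mouse was above every WT IL-2 mouse. The log2 fold changes were 2.57 ± 0.37, 3.79 ± 0.37 and 4.18 ± 0.36, each ± SE. H16R and 3x exceeded WT IL-2 by 1.22 ± 0.28 and 1.62 ± 0.28 on the log2 scale, and the difference of 3x from H16R was 0.40 ± 0.27.

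9630013D21Rik, 3023 bases from the cell cycle inhibitor gene Cdkn2c, was next. Its values were 5.35, 4.66, 3.87 and 4.21 CPM after PBS, 17.2, 13.6, 14.4 and 13.6 CPM after WT IL-2, 16.2, 14.4, 14.8 and 14.2 CPM after H16R and 17.5, 14.7, 17.7 and 16.2 CPM after 3x. The PBS mice lay below all 12 treated mice, and the 3 treated groups overlapped. From a PBS group under 5 CPM, it changed by 1.74 ± 0.14, 1.80 ± 0.14 and 1.94 ± 0.14 on the log2 scale. Cdkn2c itself changed by 1.76 ± 0.12 (adjusted p = 3.55e-12) after 3x.

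Miat, a nuclear lncRNA, was lower after 3x than after the other molecules. It stood at 2.34, 5.55, 4.28 and 1.97 CPM after PBS, 7.42, 8.83, 8.16 and 9.54 CPM after WT IL-2, 9.21, 7.11, 6.88 and 9.50 CPM after H16R and 4.02, 5.73, 5.75 and 4.91 CPM after 3x. The log2 fold changes were 1.32 ± 0.23, 1.31 ± 0.23 and 0.61 ± 0.24, from a PBS group under 5 CPM, and the 3x mice overlapped with the PBS mice. 3x was below WT IL-2 by -0.71 ± 0.22 (adjusted p = 0.0179) and below H16R by -0.69 ± 0.22 (adjusted p = 0.0568) on the log2 scale. Without isotype PBS replicate 1, the 3x change was 0.436.

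AW112010 was likewise lowest after 3x among the 3 molecules. Its values were 182, 188, 201 and 170.2 CPM after PBS, 326, 382, 321 and 308 CPM after WT IL-2, 323, 299.8, 291 and 322 CPM after H16R and 234, 238, 257 and 233 CPM after 3x. No treated mouse fell into the PBS range, and all 3x mice lay below all WT IL-2 and H16R mice. The rise was 0.90 ± 0.08, 0.82 ± 0.08 and 0.45 ± 0.08 on the log2 scale (adjusted p = 9.93e-10, 1.62e-09 and 2.51e-05), and 3x was below WT IL-2 by -0.45 ± 0.08 (adjusted p = 1.44e-04). Gm19585 rose by 0.58 ± 0.12, 0.74 ± 0.12 and 0.56 ± 0.12, Gm43042 by 0.94 ± 0.09, 1.02 ± 0.09 and 0.73 ± 0.09 and Gm11769 by 0.97 ± 0.14, 1.00 ± 0.14 and 0.92 ± 0.14 on the same scale. Gm15708, which lies inside the coding gene Bri3, rose with the muteins by 0.77 ± 0.13 and 0.98 ± 0.13, while WT IL-2 gave 0.04 ± 0.13 (adjusted p = 0.849). Its difference from WT IL-2 was 0.73 ± 0.12 (adjusted p = 5.40e-04) for H16R and 0.94 ± 0.12 (adjusted p = 4.79e-06) for 3x.

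Among the members that fell, Gm31718, intergenic on chr8:126812640-126908215 (- strand), fell most. It stood at 10.7, 13.0, 13.1 and 10.6 CPM after PBS, 5.53, 7.88, 6.41 and 6.52 CPM after WT IL-2, 4.24, 5.44, 2.94 and 4.85 CPM after H16R and 2.88, 4.27, 3.63 and 3.15 CPM after 3x. The PBS mice were above all others and the WT IL-2 mice above all mutein mice. The log2 fold changes were -0.80 ± 0.15 (adjusted p = 9.25e-05) for WT IL-2, -1.36 ± 0.15 for H16R and -1.70 ± 0.15 for 3x. The muteins, both under 5 CPM, were below WT IL-2 by -0.56 ± 0.15 and -0.90 ± 0.15.

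Peg13, an imprinted transcript within an intron of Trappc9, fell from 93.2, 103.0, 104.2 and 100.6 CPM to 58.2, 62.9, 65.2 and 55.5 CPM after WT IL-2, 52.3, 53.1, 39.2 and 55.4 CPM after H16R and 40.7, 60.0, 53.4 and 50.9 CPM after 3x. All treated mice lay below all PBS mice, with log2 fold changes of -0.68 ± 0.10, -0.92 ± 0.10 and -0.90 ± 0.10 (adjusted p = 5.93e-06, 2.32e-08 and 4.03e-08), and Trappc9 on the same strand moved by -0.16 ± 0.04 (adjusted p = 0.00238) after 3x. Kdm6bos, antisense to the histone demethylase gene Kdm6b, fell as well, with log2 fold changes of -0.73 ± 0.15, -1.08 ± 0.16 and -0.67 ± 0.15. Kdm6b changed by -0.61 ± 0.09 (adjusted p = 2.65e-06) after 3x, and 34.0% of the exonic bases of Kdm6bos lie within coding exons.

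Gm26532, intergenic on chr8:84208920-84209609 (+ strand), separated the muteins from WT IL-2. It stood at 17.5, 17.2, 19.6 and 22.0 CPM after PBS, 12.7, 14.0, 16.2 and 19.5 CPM after WT IL-2, 7.20, 7.90, 5.36 and 10.2 CPM after H16R and 6.25, 8.40, 7.73 and 9.40 CPM after 3x. The WT IL-2 mice overlapped with the PBS mice (-0.24 ± 0.15 (adjusted p = 0.22)), and the mutein mice lay below both groups, with log2 fold changes of -1.23 ± 0.16 (adjusted p = 2.29e-07) and -1.19 ± 0.16 (adjusted p = 4.07e-07). Against WT IL-2 itself the changes were -0.99 ± 0.16 (adjusted p = 3.76e-04) and -0.95 ± 0.15 (adjusted p = 6.88e-05). AI506816 also fell with the muteins, from 133, 118, 129 and 112 CPM after PBS to 84.4, 88.1, 79.9 and 78.2 CPM after H16R and 89.3, 81.9, 78.2 and 83.9 CPM after 3x, where no mouse overlapped, and stood at 109.7, 110.3, 100.4 and 115 CPM after WT IL-2.

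**Figure D2:**
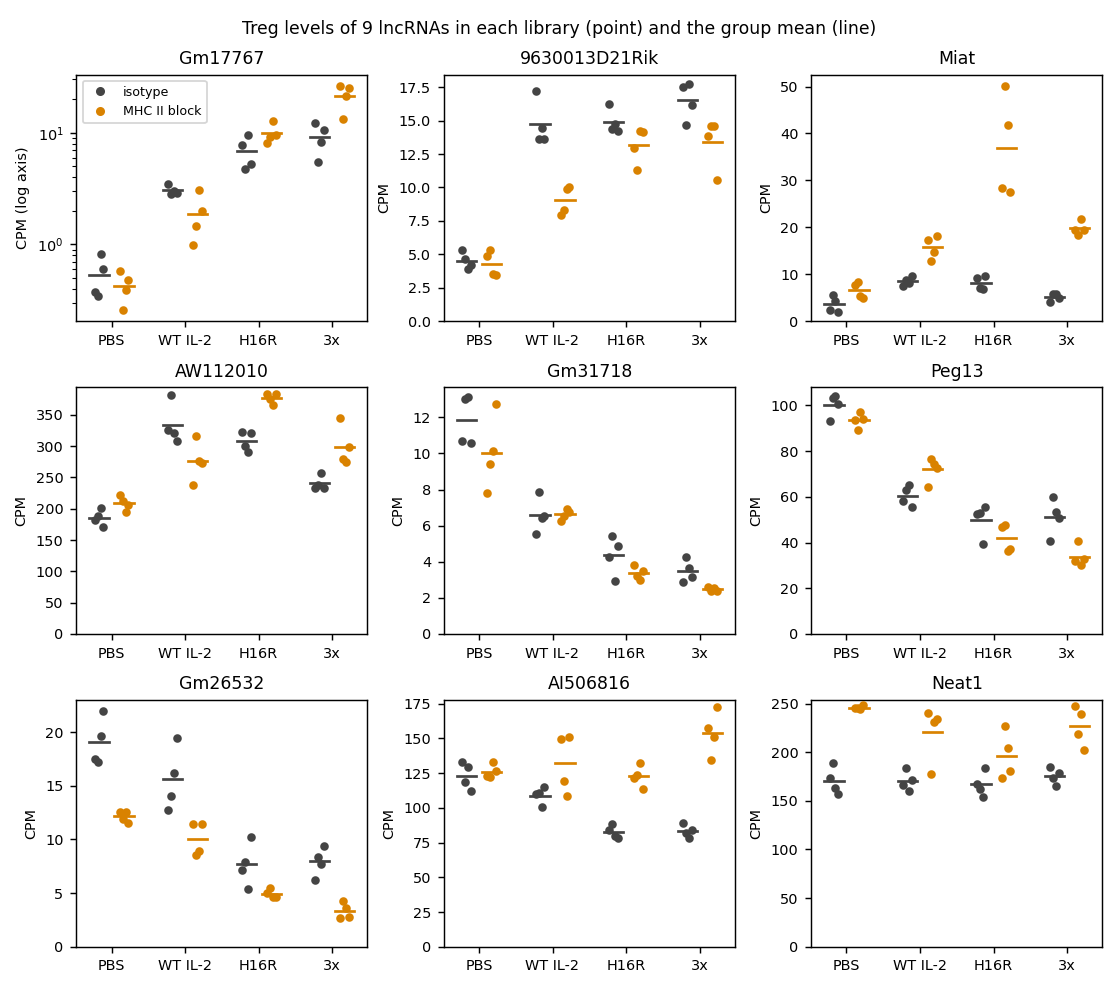
CPM of 9 lncRNAs in each Treg library (points) with the group mean (line) for PBS, WT IL-2, H16R and 3x, isotype in grey and MHC II block in orange, 4 mice each, with a log axis for Gm17767. Gm17767 rises and Gm31718 falls from PBS to the muteins in both arms, Miat reaches 36.9 ± 11.0 CPM (SD) after H16R with MHC II block, and AI506816 lies higher with MHC II block than with isotype after both muteins.

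Between the molecules, fewer lncRNAs differed in isotype mice. H16R and WT IL-2 differed in 21 of 189 members (7 higher and 14 lower, 11.1%), where 14.3% of all genes were called, 3x and WT IL-2 in 44 (16 higher and 28 lower, 23.3%, against 29.2%), and 3x and H16R in 12 (6 higher and 6 lower, 6.35%, against 9.05%). With total counts alone the first 2 splits were 3 to 18 and 11 to 32, and with limma on FPKM the first was 3 to 15. The H16R count was 10 without isotype H16R replicate 3, and the count between the muteins was 5 without isotype 3x replicate 4. Without both libraries that stand apart the 3 counts were 26, 51 and 13, and among members at 5 CPM or more in both groups they were 19 of 166, 37 of 167 and 10 of 165. Differences were more frequent with MHC II block, among all genes tested as well as among the members, whose shares lay near those of all genes. The counts were 96 for H16R against WT IL-2 (26 higher and 70 lower, 50.8%, against 51.9% of all genes), 108 for 3x against WT IL-2 (23 and 85, 57.1%, against 60.9%) and 41 for 3x against H16R (11 and 30, 21.7%, against 19.3%). These counts were 97, 113 and 53 without both libraries, and 69 of 154, 81 of 155 and 37 of 151 among members at 5 CPM or more in both groups. The comparisons between the arms are not tests of a difference between these counts.

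With MHC II block the balance of the responses lay on the lower side. WT IL-2 changed 44 members against PBS (18 higher and 26 lower, 23.3%, against 29.2% of all genes tested), H16R changed 123 (33 higher and 90 lower, 65.1%, against 61.1%) and 3x changed 134 (32 higher and 102 lower, 70.9%, against 66.7%). Among all genes 29.3% were lower after H16R and 32% after 3x. The median log2 fold change over all members was -0.02, -0.22 and -0.29, beside 0.01, -0.01 and -0.02 over all genes tested and 0.01, 0.07 and 0.08 over coding genes with a mean of at least 5 CPM. Without both libraries that stand apart the counts were 46, 128 and 139. Among members at 5 CPM or more in both groups, 38 of 179 were called after WT IL-2 (12 higher and 26 lower), 90 of 149 after H16R (26 and 64) and 102 of 150 after 3x (25 and 77). For WT IL-2 the split was 14 to 33 with total counts alone and 15 to 36 or 15 to 35 with limma on FPKM. Scaling by total counts alone moved the median of all genes by up to -0.108 on the log2 scale (H16R with MHC II block).

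**Figure D3:**
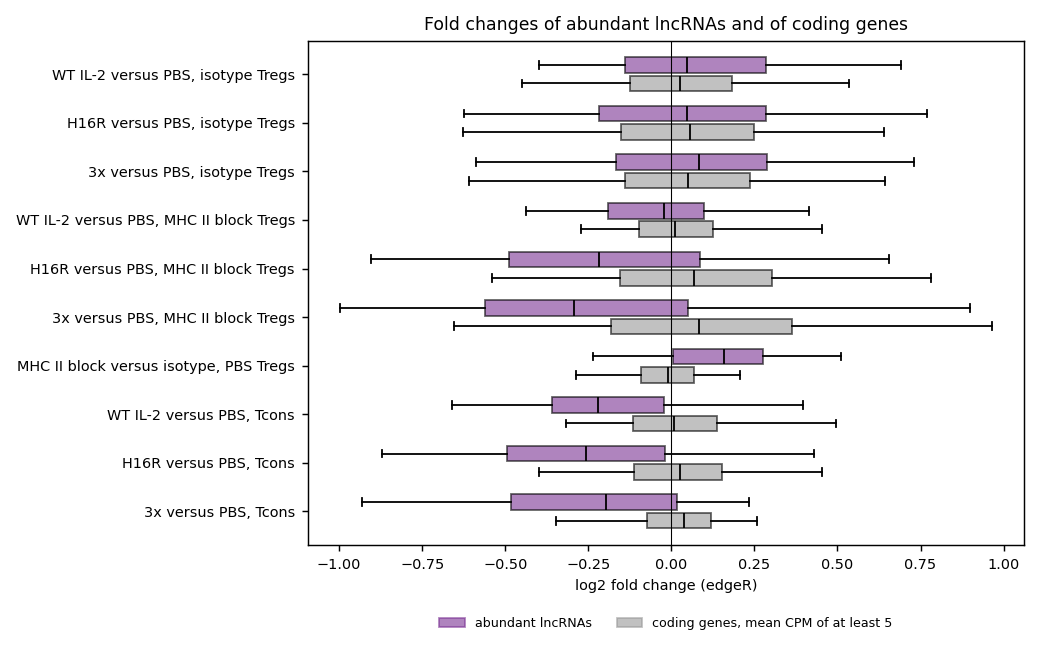
Log2 fold changes (edgeR, horizontal axis) of the abundant lncRNAs (purple) and of coding genes with a mean of at least 5 CPM (grey) in 10 comparisons; boxes span the middle 50% of genes, the line is the median and whiskers reach the 5th and 95th percentile. The lncRNA median is -0.29 after 3x with MHC II block and -0.26 after H16R in Tcons, where the coding medians are 0.08 and 0.03, and it lies at 0.16 between the antibodies in PBS Tregs.

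The shift to lower levels after 3x with MHC II block was spread over all kinds of position. Of 71 intergenic members 39 fell and 18 rose, of 69 antisense members 39 fell and 7 rose, of 34 on the strand of an overlapping coding gene 16 fell and 4 rose, and of 14 divergent members 8 fell and 3 rose. Among all genes tested 66.7% were called in this comparison and 32% were lower. The medians of these classes lay between -0.32 and -0.29 on the log2 scale. In isotype mice the same classes had medians of 0.05, 0.10, 0.14 and -0.07.

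Gm17767 again had the largest log2 fold change of the members, with the same bearing of the rule. It stood at 0.582, 0.260, 0.391 and 0.481 CPM after PBS with MHC II block, 0.998, 1.48, 3.06 and 1.98 CPM after WT IL-2, 8.17, 9.20, 12.6 and 9.60 CPM after H16R and 26.3, 13.4, 21.2 and 25.1 CPM after 3x, so that each group lay above the one before it without overlap. The log2 fold changes were 2.20 ± 0.38, 4.64 ± 0.36 and 5.76 ± 0.37, and 3x exceeded H16R by 1.12 ± 0.27. Its neighbour Nabp1, 28661 bases away, changed by 1.63 ± 0.13 (adjusted p = 1.52e-11) after 3x.

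Miat reached its highest level of all Treg groups after H16R with MHC II block. Its values were 7.71, 8.29, 5.42 and 5.00 CPM after PBS, 17.4, 12.8, 14.6 and 18.2 CPM after WT IL-2, 28.3, 50.2, 41.7 and 27.4 CPM after H16R and 19.4, 18.4, 21.8 and 19.5 CPM after 3x. All H16R mice were above all 3x mice, and these were above all WT IL-2 and PBS mice. The log2 fold changes were 1.3 ± 0.22, 2.59 ± 0.22 and 1.69 ± 0.22 (adjusted p = 9.34e-05, 1.90e-10 and 1.35e-07), and 3x was below H16R by -0.90 ± 0.21 (adjusted p = 0.00414).

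AW112010 and Gm19585 rose with both muteins. AW112010 stood at 221, 213, 195 and 207 CPM after PBS, 238, 316, 276 and 273 CPM after WT IL-2, 383, 375, 366 and 383 CPM after H16R and 345, 279, 275 and 298 CPM after 3x, and rose by 0.44 ± 0.08, 0.96 ± 0.08 and 0.63 ± 0.08 on the log2 scale. Gm19585 stood at 15.9, 15.9, 14.2 and 14.0 CPM after PBS, 29.0, 25.8, 25.9 and 28.5 CPM after H16R and 33.8, 22.1, 28.1 and 37.5 CPM after 3x, a rise of 0.97 ± 0.12 and 1.13 ± 0.12. AI662270, 8422 bases from Slfn3, rose from 71.5, 71.8, 76.3 and 74.6 CPM after PBS to 140.4, 115, 124 and 138 CPM after 3x, with no overlap (0.92 ± 0.07 (adjusted p = 2.11e-11)).

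Gm31718 and Peg13 were lower after 3x here too, and Peg13 fell by more than in isotype mice, with a 3x interaction of -0.47 ± 0.14 (adjusted p = 0.0185). Gm31718 stood at 7.78, 9.43, 10.1 and 12.8 CPM after PBS and at 2.60, 2.38, 2.54 and 2.40 CPM after 3x, and Peg13 at 93.5, 89.4, 97.0 and 93.9 CPM and 32.0, 40.6, 30.0 and 32.7 CPM. Neither pair overlapped, and the log2 fold changes after 3x were -1.91 ± 0.15 and -1.36 ± 0.10 (adjusted p = 9.06e-12). Gm26532 was already lower in PBS mice with MHC II block, at 12.6, 11.9, 12.5 and 11.5 CPM, and reached 4.99, 5.50, 4.63 and 4.65 CPM after H16R and 2.67, 4.25, 3.64 and 2.75 CPM after 3x (-1.19 ± 0.16 and -1.77 ± 0.16). The imprinting regulator Kcnq1ot1 fell after both muteins, with -1.19 ± 0.34 and -0.79 ± 0.33.

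MHC II block alone raised lncRNAs more often than it lowered them. In PBS Tregs 44 of 189 members changed (35 higher and 9 lower, 23.3%), where 12.4% of all genes tested and 13.9% of coding genes with a mean of at least 5 CPM were called, and the median of all members was 0.16 beside 0.00 for all genes. The higher members alone compare with 5.75% of all genes. No member moved by 2-fold, while 1.74% of all genes did (edgeR). After WT IL-2, 53 members differed between the antibodies (33 higher and 20 lower, 28%, against 30.7% of all genes), after H16R 41 (16 higher and 25 lower, 21.7%, against 24.5%) and after 3x 101 (26 higher and 75 lower, 53.4%, against 47.4%), where 19% of all genes were lower. The PBS count was 22 with only the 2 groups fitted and 32 after thinning all libraries to the smallest, and the isotype PBS group held the 3 shallowest libraries of the series. The H16R count was 26 without isotype H16R replicate 4 and 24 without MHC II block H16R replicate 3. Without both libraries that stand apart the 4 counts were 47, 46, 45 and 110, and among members at 5 CPM or more in both groups they were 41 of 171, 45 of 175, 32 of 153 and 81 of 154.

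Neat1, the scaffold of paraspeckles, was higher with MHC II block in all 4 treatments. It stood at 173, 189, 163 and 157 CPM in isotype PBS mice and at 245, 245, 244 and 249 CPM in PBS mice with MHC II block. After 3x it stood at 185, 174, 165 and 179 CPM and 247, 218, 239 and 203 CPM. Neither pair of groups overlapped. The log2 differences were 0.50 ± 0.08, 0.34 ± 0.08, 0.23 ± 0.08 and 0.37 ± 0.08 for PBS, WT IL-2, H16R and 3x (adjusted p = 1.71e-04, 0.00215, 0.0452 and 4.25e-04), while no IL-2 molecule changed Neat1 past the threshold in isotype mice.

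Miat was higher with MHC II block in every treatment as well, by 0.88 ± 0.24, 0.86 ± 0.21, 2.16 ± 0.22 and 1.96 ± 0.22 on the log2 scale (adjusted p = 0.0036, 1.82e-07 and 8.69e-08 for the 3 molecules). B630019A10Rik, 294 bases from the sialyltransferase gene St6gal1, differed by antibody in PBS mice, with 11.6, 14.9, 11.2 and 16.6 CPM against 22.2, 20.7, 22.6 and 22.1 CPM (0.67 ± 0.15 (adjusted p = 0.00545)), and after 3x it was lower with MHC II block (-0.34 ± 0.15 (adjusted p = 0.0649)). Gm48754 (0.72 ± 0.18), 2010016I18Rik (0.67 ± 0.12) and 9330175E14Rik (0.64 ± 0.13) were the other leading rises in PBS mice. Gm26532 was lower with MHC II block in all 4 treatments (-0.68 ± 0.15, -0.67 ± 0.15, -0.64 ± 0.16 and -1.26 ± 0.16), as was Mir22hg (-0.42 ± 0.11, -0.62 ± 0.10, -0.37 ± 0.11 and -0.53 ± 0.11).

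After WT IL-2, Gm17767 and 9630013D21Rik were lower with MHC II block, while Miat was higher, as given above. Gm17767 was at 3.50, 2.80, 3.02 and 2.86 CPM with isotype and 0.998, 1.48, 3.06 and 1.98 CPM with MHC II block (-0.71 ± 0.30), and 9630013D21Rik at 17.2, 13.6, 14.4 and 13.6 CPM and 7.90, 8.29, 9.91 and 10.0 CPM (-0.74 ± 0.13 (adjusted p = 1.17e-04)). The first pair overlapped and the second did not. Leaving out replicate 1 of the group with MHC II block gave -0.512 for Gm17767. AW112010 was lower too (-0.31 ± 0.08 (adjusted p = 0.00426)). After 3x the order of Gm17767 was the opposite, with 1.24 ± 0.27.

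The interaction asks directly whether a response differed between the antibodies. It was called for 24 members with WT IL-2 (2 higher and 22 lower, 12.7%, against 16.6% of all genes tested), 30 with H16R (3 and 27, 15.9%, against 14.9%) and 90 with 3x (8 and 82, 47.6%, against 34.5%), where 13.3% of all genes tested were lower. The H16R count was 49 without MHC II block H16R replicate 2, and after thinning the 3x count was 64. Without both libraries that stand apart the counts were 23, 31 and 90, and among members at 5 CPM or more in all 4 groups they were 23 of 163, 25 of 142 and 71 of 141. The median interaction of all members with 3x was -0.34 on the log2 scale, beside 0.03 for all genes tested.

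Among the few that went the other way, AI506816 changed sign. After 3x it fell with isotype, with -0.49 ± 0.09 on the log2 scale, and rose with MHC II block by 0.40 ± 0.09, where its mice stood at 123, 122, 133 and 126 CPM after PBS and 158, 134, 151 and 173 CPM after 3x, without overlap. The interaction was 0.89 ± 0.12 (adjusted p = 1.17e-05) with 3x and 0.56 ± 0.12 (adjusted p = 0.00544) with H16R. For Miat the interactions were 1.28 ± 0.32 with H16R and 1.08 ± 0.32 with 3x, and for Gm17767 1.58 ± 0.55 with 3x.

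Of the lower ones, Gm30054 rose with all 3 molecules in isotype mice and with none in mice with MHC II block. It stood at 11.5, 13.3, 11.1 and 12.2 CPM after PBS, 18.8, 20.1, 16.8 and 20.8 CPM after WT IL-2, 20.6, 23.2, 20.4 and 23.3 CPM after H16R and 14.3, 18.1, 19.5 and 17.0 CPM after 3x. The PBS mice with MHC II block were already at 19.1, 18.9, 18.0 and 17.8 CPM, and the 3x mice were at 14.3, 17.1, 14.3 and 13.0 CPM. The 3x change there was -0.22 ± 0.08 (adjusted p = 0.0203). The interactions were -0.66 ± 0.12, -0.80 ± 0.12 and -0.82 ± 0.12 (adjusted p = 5.72e-04, 1.25e-04 and 2.20e-05). Gm30054 is antisense to Fam149b, 82.9% of its exonic bases lie in coding exons, and Fam149b moved by 0.39 ± 0.09 (adjusted p = 8.41e-04) and -0.26 ± 0.09 (adjusted p = 0.0152) after 3x in the 2 arms, so reads of the pair may not be told apart.

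Lncpint, a nuclear lncRNA induced by p53, also moved in opposite directions in the 2 arms after 3x. In isotype mice it stood at 9.83, 12.8, 11.5 and 10.8 CPM after PBS and 11.1, 12.7, 12.7 and 12.9 CPM after 3x, with overlap, and with MHC II block at 12.9, 11.3, 14.4 and 12.5 CPM and 7.91, 8.72, 8.91 and 7.00 CPM, without overlap. The changes were 0.22 ± 0.09 (adjusted p = 0.0448) and -0.55 ± 0.09 (adjusted p = 6.34e-06), and the interaction was -0.76 ± 0.13 (adjusted p = 9.67e-05). The isotype change did not pass without isotype PBS replicate 1 (0.156). Gm15708 had 13.4, 12.9, 11.9 and 13.6 CPM after 3x with isotype and 8.73, 9.28, 9.59 and 8.63 CPM with MHC II block, and its interaction was -0.81 ± 0.18 (adjusted p = 0.00142).

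Of the gene lists used, the snoRNA host genes had the most members. Their spliced exons are mostly untranslated carriers, and their introns yield the snoRNAs that guide modification of ribosomal RNA. Of 21 genes on the list 11 were members, and all were tested. In isotype mice 1 rose and 4 fell after WT IL-2, 2 and 4 after H16R, and 3 and 4 after 3x, with medians of 0.01, 0.05 and 0.05 on the log2 scale. These 5, 6 and 7 of 11 stand beside 45.6%, 59% and 58% of all genes called. With MHC II block 4 fell after WT IL-2 and 0 rose, 5 fell and 1 rose after H16R, and 9 fell and 0 rose after 3x, where the median was -0.43, beside 29.2%, 61.1% and 66.7% of all genes called and, after 3x, 32% lower. The medians of all genes tested were 0.01 and -0.02 after 3x in the 2 arms.

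Snhg1, Snhg12, Snhg15 and Snhg17 fell in each of the 6 comparisons with PBS. Snhg15, whose promoter is printed above, stood at 20.0, 19.9, 20.2 and 16.0 CPM in isotype PBS mice, 11.6, 15.3, 13.1 and 16.0 CPM after WT IL-2, 9.33, 9.87, 7.91 and 11.7 CPM after H16R and 9.81, 10.3, 9.24 and 9.93 CPM after 3x. It went from 17.5, 16.6, 17.1 and 17.9 CPM after PBS to 6.30, 8.38, 8.32 and 6.38 CPM after 3x with MHC II block. The mutein groups did not overlap with their PBS groups, and the log2 fold changes were -0.40 ± 0.10, -0.89 ± 0.10 and -0.88 ± 0.10 with isotype and -0.44 ± 0.10, -0.98 ± 0.10 and -1.13 ± 0.10 with MHC II block. Isotype PBS replicate 4 was lower than the other PBS mice for this gene and for Gas5.

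Snhg1 stood at 66.6, 73.5, 78.4 and 66.2 CPM after PBS and 51.2, 49.5, 50.5 and 51.7 CPM after 3x with isotype, and at 60.5, 55.0, 61.0 and 65.0 CPM and 31.4, 35.2, 35.8 and 34.5 CPM with MHC II block. Snhg12 stood at 66.9, 66.7, 72.7 and 53.6 CPM and 44.0, 54.7, 48.4 and 47.4 CPM with isotype, and at 66.7, 61.5, 66.0 and 67.9 CPM and 29.7, 35.1, 33.8 and 31.6 CPM with MHC II block. Of these 4 pairs, only Snhg12 with isotype overlapped. Both fell more with MHC II block, and the 3x interactions were -0.30 ± 0.09 (adjusted p = 0.012) for Snhg1 and -0.55 ± 0.10 (adjusted p = 2.98e-04) for Snhg12. For Snhg17 the log2 fold changes after 3x were -0.59 ± 0.06 (adjusted p = 2.97e-09) with isotype and -0.96 ± 0.06 (adjusted p = 9.42e-14) with MHC II block.

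Gas5, the most abundant of the hosts per length, was nearly level in isotype mice, at 158, 159, 163 and 99.9 CPM after PBS and 149.7, 149, 139.8 and 152 CPM after 3x. With MHC II block it was at 158, 156, 155 and 167 CPM after PBS, 150.4, 138, 133 and 159.9 CPM after H16R and 109, 117, 120.1 and 120.2 CPM after 3x. Here only the 3x mice lay below all PBS mice without overlap, with -0.34 ± 0.10 (adjusted p = 0.00453) against -0.02 ± 0.10 (adjusted p = 0.874) for H16R, and the 3x interaction was -0.44 ± 0.14 (adjusted p = 0.023). This interaction takes in isotype PBS replicate 4, at 99.9 CPM, where the other isotype PBS mice were at 158 to 163 CPM, above the isotype 3x mice. Snhg8 (-0.67 ± 0.14) and Epb41l4aos (-0.43 ± 0.08) also fell after 3x with MHC II block and stood at -0.00 ± 0.14 and 0.05 ± 0.08 in isotype mice. Zfas1 went from 0.27 ± 0.12 (adjusted p = 0.0592) with isotype to -0.14 ± 0.12 (adjusted p = 0.312) with MHC II block. Between the antibodies after 3x, 10 of 11 hosts were lower with MHC II block, where 19% of all genes were lower.

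Coding genes of the translation machinery stood nearer to 0. Of 12 such genes (10 ribosomal proteins, Eef1a1 and Eef2), 1 fell and 2 rose after 3x with isotype, with a median of 0.01. With MHC II block 5 fell and 1 rose, with a median of -0.10. Of all genes tested, 58% and 66.7% were called in these comparisons, and 32% were lower in the second. Between the antibodies after 3x, 6 of 12 were lower, where 19% of all genes were. The median was -0.15, beside -0.39 for the snoRNA hosts.

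**Figure D4:**
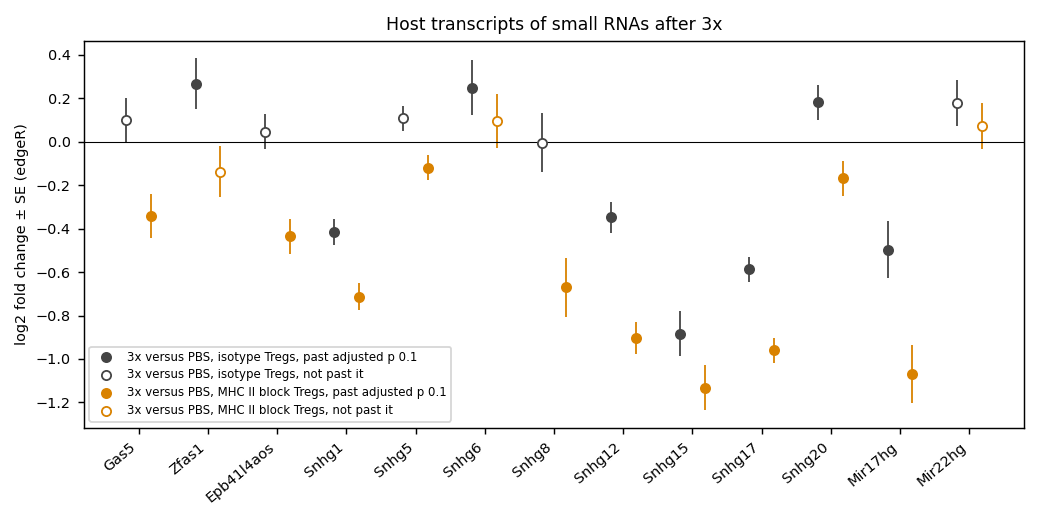
Log2 fold change ± SE (edgeR) after 3x against PBS for 11 snoRNA hosts and 2 microRNA hosts in Tregs, isotype in grey and MHC II block in orange, 4 mice a group, with filled points past adjusted p 0.1. With isotype 4 snoRNA hosts lie below 0 past the threshold, and with MHC II block 9 do, from -1.13 for Snhg15 upward, and Mir17hg reaches -1.07.

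Of the microRNA hosts, Mir17hg fell in each arm. It stood at 8.39, 7.98, 8.68 and 10.6 CPM after PBS, 6.10, 5.39, 5.59 and 6.22 CPM after WT IL-2, 4.39, 5.10, 3.86 and 4.77 CPM after H16R and 5.46, 6.21, 5.93 and 6.40 CPM after 3x with isotype. With MHC II block it stood at 7.56, 8.23, 8.70 and 7.70 CPM, 5.38, 5.12, 8.28 and 6.32 CPM, 4.41, 5.12, 3.16 and 3.37 CPM and 3.50, 3.89, 3.86 and 3.03 CPM. The isotype PBS mice lay above all treated isotype mice, and with MHC II block the mutein mice lay below all PBS mice while 1 WT IL-2 mouse did not. The log2 fold changes were -0.56 ± 0.13, -0.89 ± 0.13 and -0.50 ± 0.13 and -0.32 ± 0.13, -0.91 ± 0.13 and -1.07 ± 0.13, and the 3x interaction was -0.57 ± 0.19. Polyadenylated RNA was sequenced, so the values are of the host and say nothing of the mature microRNAs printed above.

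Mir22hg rose after WT IL-2 with isotype and was lower with MHC II block. It stood at 10.6, 11.6, 11.0 and 12.7 CPM after PBS and 13.4, 15.9, 15.2 and 15.2 CPM after WT IL-2 with isotype (0.43 ± 0.11 (adjusted p = 0.00222)), without overlap. Mice with MHC II block had 8.04, 8.03, 10.9 and 7.79 CPM after PBS and 10.9, 8.34, 10.7 and 9.92 CPM after WT IL-2, with overlap (0.23 ± 0.11 (adjusted p = 0.12)). After H16R the changes were 0.26 ± 0.11 (adjusted p = 0.0435) with isotype and 0.31 ± 0.11 (adjusted p = 0.0172) with MHC II block, and the first did not pass without isotype H16R replicate 4 (0.156) or isotype PBS replicate 1 (0.218). After 3x they were 0.18 ± 0.11 (adjusted p = 0.168) and 0.07 ± 0.11 (adjusted p = 0.576). The antibody difference was -0.42 ± 0.11 (adjusted p = 0.0145) in PBS mice and -0.62 ± 0.10 (adjusted p = 9.69e-05) after WT IL-2.

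The X inactivation centre has 4 genes on its list, of which Xist and Ftx, an activator of Xist, were members. Ftx fell in isotype mice, with log2 fold changes of -0.26 ± 0.08, -0.47 ± 0.08 and -0.52 ± 0.08, and after the muteins with MHC II block, with -0.48 ± 0.08 and -0.55 ± 0.08, while Xist passed the test only after H16R with MHC II block (-0.40 ± 0.16 (adjusted p = 0.0382)). There Xist stood at 1358, 1351, 1373 and 1333 CPM after PBS and 890.2, 1228, 944 and 767 CPM after H16R, and the mice did not overlap. Of 8 nuclear and broadly expressed regulators 7 were tested, and 2 rose and 1 fell after 3x with isotype and 1 and 4 with MHC II block, where 58% and 66.7% of all genes were called. Pvt1, a neighbour of Myc, fell after 3x with MHC II block, with -0.35 ± 0.08 (adjusted p = 4.88e-04), and Firre, an X-linked lncRNA of nuclear organization, fell after 3x with isotype, with -0.33 ± 0.11 (adjusted p = 0.0141).

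Among the immune lncRNAs, Flicr lies at Foxp3 and is known to restrain its expression. It stood at 10.6, 9.86, 11.5 and 10.3 CPM after PBS, 13.0, 13.6, 12.4 and 14.0 CPM after H16R and 12.6, 13.6, 12.1 and 12.6 CPM after 3x with isotype, all mutein mice above all PBS mice. It rose by 0.41 ± 0.09 (adjusted p = 3.17e-04) and 0.34 ± 0.09 (adjusted p = 0.0021). Its PBS mice with MHC II block were at 13.1, 11.2, 12.2 and 10.7 CPM and its 3x mice at 11.0, 11.0, 12.4 and 11.3 CPM, with overlap and a change of 0.06 ± 0.09 (adjusted p = 0.572), and the 3x interaction was -0.28 ± 0.13 (adjusted p = 0.0976). Foxp3 rose by 0.63 ± 0.06 (adjusted p = 1.90e-09) and 0.42 ± 0.06 (adjusted p = 6.68e-07) on the log2 scale after 3x in the 2 arms. Flicr shares 25.0% of its exonic bases with coding exons, and Gm36995, which spans Foxp3 and Ccdc22, shares 93.8%, so part of their counts may be reads of those genes.

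The members lay on all chromosomes, with 15 each on chromosomes 17 and 5 and 7 on X. GENCODE vM21 (GRCm38) gave a position to 191 of 192, and it types 4 of them (Gm47283, Gm9821, AW011738 and Gm10382) as protein-coding. By that annotation 73 were intergenic, 69 antisense to a coding gene, 34 within or across a coding gene on its strand, and 15 divergent, with the start within 2000 bases of that of a coding gene. In all, 108 overlapped a coding gene, 76 of them in coding-gene exons, and for 10 more than 50% of the exonic bases lay there, which included Gm36995 and Gm30054. Their exonic length had a median of 2942 bases (430 to 93092). Strand-aware counting is not given in the sources used here, so antisense members and their partners are uncertain as single values.

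After 3x with isotype 93 called members had a tested coding neighbour, and 63 of these neighbours were called too (67.7%), 46 in the same direction and 17 in the opposite one. The neighbours of members that were not called gave 52.1%, and 63.1% of coding genes with a mean of at least 5 CPM were called. After 3x with MHC II block the neighbours of 133 called members gave 103 calls (77.4%), 66 in the same direction and 37 in the opposite one, beside 81.5% for the other neighbours and 75% of those coding genes. Over 19 Treg comparisons the share for neighbours of called members was above that of coding genes in 12 and below it in 7. Across 187 pairs the correlation of the log2 fold changes was 0.286 after 3x with isotype, and it was 0.357 over the 133 pairs within 10 kb and 0.213 over the 50 pairs farther apart. After 3x with MHC II block the order was the other way, with 0.386 over all pairs, 0.396 near and 0.421 far. The pairs are genes of the same libraries and not replicates, and pairs that share exons share reads. Among the leading members, 9630013D21Rik and Cdkn2c rose together, whereas Gm31718 and Gm26532 fell after 3x with isotype while Tomm20 (0.04 ± 0.05 (adjusted p = 0.564)) and Zswim4 (0.05 ± 0.05 (adjusted p = 0.487)) did not pass the test.

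In Tcons, where the rule used no value, most called lncRNAs fell. With both antibody arms in 1 fit, WT IL-2 changed 61 of 191 members against PBS (13 higher and 48 lower, 31.9%, against 26.2% of all genes tested), H16R 90 (12 and 78, 47.1%, against 32%) and 3x 56 (5 and 51, 29.3%, against 13.4%). MHC II block against isotype changed 66 (12 and 54, 34.6%, against 26.9%). In these comparisons 12.1%, 15.5%, 7.37% and 12.5% of all genes were lower. The medians of all members were -0.22, -0.26, -0.20 and -0.12 on the log2 scale, beside 0.00, 0.01, 0.01 and 0.01 for all genes. Each group has 2 mice, and single libraries weighed on the counts. Without isotype WT IL-2 replicate 1 the WT IL-2 count was 32, without replicate 2 of that group 113, 38 when PBS replicate 2 with MHC II block was left out, and 36 when WT IL-2 replicate 1 of that arm was left out. The H16R count was 47 without isotype H16R replicate 1. The 3x count was 35 without isotype PBS replicate 2 or isotype 3x replicate 2, 33 and 28 when PBS replicate 2 or 1 with MHC II block was left out, and 28 without either 3x library of that arm.

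B cell markers summed to 900.2 and 1024 CPM in the isotype PBS Tcons and to 144 to 451 CPM in the other Tcon groups, and myeloid markers to 356 and 577 CPM in the Tcons given WT IL-2 with MHC II block against 41.3 to 206 CPM elsewhere. Treg markers summed to 1339 and 2630 CPM in the isotype Tcons given WT IL-2, against 1272 and 1408 CPM in isotype PBS Tcons. These sums move with the comparisons above, and their part in the Tcon results was not tested.

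Of the leading Treg responders, Gm17767 and AW112010 rose in Tcons with each molecule, and 9630013D21Rik and Miat with WT IL-2 and H16R. Gm17767 stood at 0.102 and 0.0523 CPM in isotype PBS Tcons and 0.0792 and 0 CPM with MHC II block, and at 0.549 and 0.358 and 0.352 and 0.50 CPM after H16R. It rose by 2.54 ± 0.61, 2.93 ± 0.59 and 2.08 ± 0.63 for WT IL-2, H16R and 3x (adjusted p = 0.018, 0.00609 and 0.064), from levels near 0. Miat stood at 1.83 and 1.78 and 2.96 and 2.67 CPM after PBS and at 2.51 and 2.40 and 9.59 and 10.4 CPM after H16R in the 2 arms. It changed by 1.46 ± 0.36 (adjusted p = 0.02), 1.24 ± 0.36 (adjusted p = 0.0288) and 0.20 ± 0.36 (adjusted p = 0.764), and by 1.00 ± 0.26 (adjusted p = 0.0278) between the antibodies. The Tcon fit has no interaction term, so each change is shared by both arms. In CPM, the H16R mice lay further above PBS with MHC II block than with isotype. 9630013D21Rik stood at 3.78 and 2.88 and 3.14 and 3.26 CPM after PBS and at 6.64 and 5.87 and 5.45 and 4.70 CPM after H16R, and changed by 0.67 ± 0.20 (adjusted p = 0.0415), 0.79 ± 0.20 (adjusted p = 0.017) and 0.22 ± 0.20 (adjusted p = 0.517). AW112010 rose by 0.68 ± 0.10, 0.66 ± 0.10 and 0.33 ± 0.10.

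Malat1 fell after both muteins in Tcons. The 4 PBS mice stood at 2394 and 3130.2 CPM with isotype and 2779 and 1951 CPM with MHC II block, the H16R mice at 1115 and 1910.1 and 891 and 1443 CPM, and the 3x mice at 1498 and 1919 and 888 and 1004 CPM. All H16R and 3x mice lay below all PBS mice, with log2 fold changes of -0.94 ± 0.26 (adjusted p = 0.0242) and -1.00 ± 0.26 (adjusted p = 0.0394). Kcnq1ot1 fell after each molecule, with -0.80 ± 0.22, -1.07 ± 0.22 and -1.19 ± 0.22, as did Gm31718, with -0.72 ± 0.29, -1.27 ± 0.30 and -1.02 ± 0.29. Mir22hg fell after the muteins, with -0.79 ± 0.19 and -1.13 ± 0.20. None of the 11 snoRNA hosts changed past the threshold after 3x in Tcons in edgeR, DESeq2 or limma (1 had an unadjusted p under 0.05 in each), where their median was 0.05 and 13.4% of all genes were called in edgeR. After WT IL-2 and H16R 5 and 4 hosts fell, where 12.1% and 15.5% of all genes were lower.

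As a description, because the Treg level chose the members, 31 of 191 members were higher in Tregs than in Tcons in each of the 16 mice with both fractions and 19 were lower in each. Among 9404 coding genes with a mean of at least 5 CPM the numbers were 1241 and 1274. Gm17767 was highest relative to Tcons, at 6.11 ± 6.90 CPM in Tregs and 0.273 ± 0.191 in Tcons (SD, n = 16), followed by 2610204G07Rik, an antisense transcript in Cwc27, at 7.58 ± 1.82 CPM in Tregs and 1.14 ± 0.530 in Tcons. Flicr had 11.7 ± 1.44 CPM in Tregs and 3.04 ± 0.931 in Tcons, F730043M19Rik 17.4 ± 2.47 CPM in Tregs and 5.56 ± 1.95 in Tcons and Gm17173 12.1 ± 3.94 CPM in Tregs and 4.29 ± 1.59 in Tcons.

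In the other direction Gm48942 had 20.2 ± 5.53 CPM in Tregs and 76.7 ± 17.5 in Tcons, Gm12840 28.5 ± 3.63 CPM in Tregs and 71.2 ± 13.1 in Tcons, Gm47015 18.0 ± 4.91 CPM in Tregs and 38.0 ± 8.97 in Tcons, Mirt1 29.0 ± 6.86 CPM in Tregs and 60.7 ± 12.9 in Tcons and AI506816 117 ± 22.2 CPM in Tregs and 209.5 ± 44.2 in Tcons. Between the Treg groups 2610204G07Rik varied too, with 5.23, 6.34, 5.50 and 4.54 CPM after PBS, 10.5, 11.4, 8.65 and 8.61 CPM after H16R and 8.79, 9.64, 8.52 and 7.93 CPM after 3x with isotype, without overlap with PBS. The 3x mice with MHC II block, at 5.18, 5.78, 6.26 and 6.31 CPM, overlapped with the PBS mice, at 5.71, 7.22, 5.89 and 6.22 CPM, and the 3x interaction was -0.74 ± 0.14 (adjusted p = 4.95e-04).

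**Figure D5:**
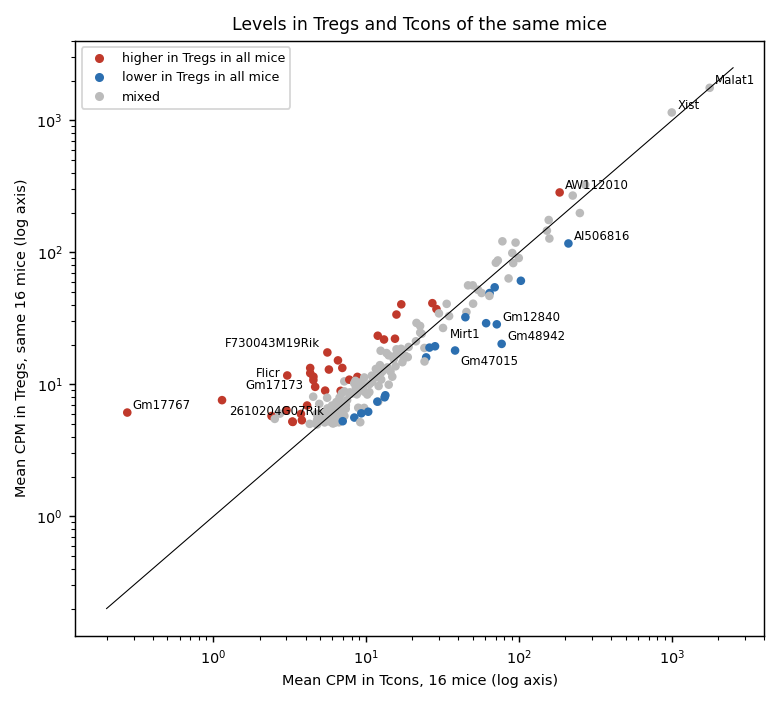
Mean CPM in Tregs (vertical, log axis) against mean CPM in Tcons (horizontal, log axis) over the same 16 mice, 1 point for each of 191 lncRNAs, red where Tregs were higher in all mice (31), blue where lower in all (19), with the line of equal levels. Gm17767 lies farthest above the line, at 6.11 against 0.273 CPM, and Gm48942 farthest below it, at 20.2 against 76.7 CPM.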

How the data were processed

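The series holds 48 libraries of polyadenylated RNA, 32 from Tregs (4 mice in each of 8 groups) and 16 from Tcons (2 in each of 8 groups), sequenced paired-end from a stranded kit. Per the methods, the authors aligned reads to GRCm38 with the OSA aligner in Omicsoft software and estimated expression with RSEM, and they deposited expected counts and FPKM per gene. Of nonzero expected counts 72.6% were whole, and they were rounded before testing. Empty cells were treated as missing, so genes with one were not tested in that cell type. The authors' comparison tables, made with DESeq2 1.30.1, hold fold changes, statistics, p-values and adjusted p-values, and only their gene names and gene types were read. Strand-aware counting is not given in the sources used here. Positions were taken from GENCODE vM21, which held 96.6% of the gene names, and sequences from RefSeq.

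Counts were tested with edgeR 4.0.16 (quasi-likelihood, TMM) in R 4.3.3, in 1 fit of the 8 Treg groups and 1 fit of the Tcons with molecule and antibody as terms, over genes with at least 0.5 CPM in at least 4 libraries. Adjusted p-values (Benjamini-Hochberg) run over all genes tested and the threshold was 0.1. Per the methods, mice were processed singly, but the labels give 2 isotype WT IL-2 Treg libraries (3a and 3b) the same mouse number. No 2 libraries were copies, but that does not show separate mice. Each counted as 1 replicate, and if 3a and 3b share a mouse, p-values that use that group are too small. Members, gene lists and tests were chosen with earlier results of these data known. Named members were the 10 highest by FPKM, all on the lncRNA lists, the 5 largest rises and falls per molecule in isotype mice and per antibody comparison, the 3 largest interactions in each direction, the 5 highest and lowest in Tregs against Tcons, and those beside the threshold. Differences of Tregs and Tcons used log2(CPM + 0.5). Alternatives were DESeq2 1.42.0, limma 3.58.1 on log2 FPKM, other scalings and filters, thinning, a replicate block and leaving out each library. On simulated counts for 3x against PBS in isotype Tregs (14765 genes), 83.6% of genes changed by 1 on the log2 scale were recovered and 8.64% of calls were false. Python 3.11.15, pandas 2.3.3, numpy 2.4.6 and matplotlib 3.10.9 were used.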

Additional observations from a re-analysis of the deposited data

Results flagged for a closer look

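In 10 of 208 groups of 4 Treg libraries tested, 1 library lay apart from the other 3 by Dixon's criterion (the gap to the nearest library over the range of the group, at the 95% level), and chance gives about 1 in 20. AI662270 was at 80.9 CPM in isotype PBS replicate 3, against 72.2 to 73.04 CPM in the other 3 mice. Neat1 was at 177 CPM in MHC II block WT IL-2 replicate 2, against 231 to 239.9 CPM. Gm15708 was at 13.6 CPM in isotype H16R replicate 3, against 9.86 to 10.5 CPM. Lncpint was at 11.1 CPM in isotype 3x replicate 1, against 12.7 to 12.9 CPM. Snhg12 was at 54.4 CPM in isotype WT IL-2 replicate 3a, against 47.4 to 47.8 CPM. Isotype PBS replicate 4 was low for 2 snoRNA hosts, with Snhg15 at 16.0 CPM, against 19.9 to 20.2 CPM, and Gas5 at 99.9 CPM, against 158 to 163 CPM. Mir22hg was at 15.6 CPM in isotype H16R replicate 4, against 11.7 to 12.3 CPM, and at 10.9 CPM in MHC II block PBS replicate 3, against 7.79 to 8.04 CPM. The members held 0.918% of the counts in MHC II block PBS replicate 1, against 0.856% to 0.866% in the other 3 mice.

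For 50 pairs of a named lncRNA and a molecule, the response differed between the antibodies at an adjusted p under 0.1 (edgeR interaction term). The values in brackets are the interaction ± SE, then the response with isotype and with MHC II block, all on the log2 scale. With WT IL-2 the interaction was above 0 for Snhg17 (0.28 ± 0.08, -0.64 and -0.36) and Ftx (0.33 ± 0.11, -0.26 and 0.07). It was below 0 for AW112010 (-0.46 ± 0.11, 0.90 and 0.44), Snhg5 (-0.29 ± 0.08, 0.30 and 0.01), Lncpint (-0.44 ± 0.13, 0.31 and -0.13), Gm43042 (-0.45 ± 0.12, 0.94 and 0.49), B630019A10Rik (-0.66 ± 0.21, 0.09 and -0.58), Gm42829 (-0.49 ± 0.19, 0.25 and -0.24), B930095G15Rik (-0.71 ± 0.26, 0.87 and 0.17), A430093F15Rik (-0.68 ± 0.12, 0.76 and 0.08), Gm30054 (-0.66 ± 0.12, 0.71 and 0.06), 2610204G07Rik (-0.47 ± 0.14, 0.73 and 0.26), F730043M19Rik (-0.30 ± 0.11, 0.31 and 0.00) and Gm12840 (-0.54 ± 0.20, 0.51 and -0.03). With H16R it was above 0 for AI662270 (0.36 ± 0.10, 0.30 and 0.65) and AI506816 (0.56 ± 0.12, -0.49 and 0.07). It was below 0 for Snhg8 (-0.54 ± 0.19, 0.05 and -0.49), Lncpint (-0.42 ± 0.13, 0.24 and -0.18), B630019A10Rik (-0.94 ± 0.21, 0.32 and -0.62), Gm30054 (-0.80 ± 0.12, 0.95 and 0.15) and 2610204G07Rik (-0.59 ± 0.14, 0.94 and 0.35). With 3x it was above 0 for AI662270 (0.58 ± 0.10, 0.35 and 0.92), Gm19585 (0.57 ± 0.17, 0.56 and 1.13), AI506816 (0.89 ± 0.12, -0.49 and 0.40) and AW011738 (0.46 ± 0.10, -0.61 and -0.15). It was below 0 for Gas5 (-0.44 ± 0.14, 0.10 and -0.34), 2410006H16Rik (-0.35 ± 0.13, 0.24 and -0.11), Gm47283 (-0.97 ± 0.43, -0.41 and -1.38), Snhg1 (-0.30 ± 0.09, -0.41 and -0.71), Snhg5 (-0.23 ± 0.08, 0.11 and -0.12), Snhg8 (-0.67 ± 0.19, -0.00 and -0.67), Snhg12 (-0.55 ± 0.10, -0.35 and -0.90), Snhg17 (-0.37 ± 0.08, -0.59 and -0.96), Snhg20 (-0.35 ± 0.11, 0.18 and -0.17), Zfas1 (-0.40 ± 0.17, 0.27 and -0.14), Epb41l4aos (-0.48 ± 0.11, 0.05 and -0.43), Lncpint (-0.76 ± 0.13, 0.22 and -0.55), Flicr (-0.28 ± 0.13, 0.34 and 0.06), Peg13 (-0.47 ± 0.14, -0.90 and -1.36), Gm15708 (-0.81 ± 0.18, 0.98 and 0.17), Gm17173 (-0.40 ± 0.16, -0.80 and -1.20), 2010016I18Rik (-0.45 ± 0.16, -0.19 and -0.64), B630019A10Rik (-1.01 ± 0.21, 0.39 and -0.62), 4632404H12Rik (-0.40 ± 0.16, -0.13 and -0.53), Gm17552 (-0.70 ± 0.22, -0.41 and -1.11), Gm26740 (-0.60 ± 0.19, -0.14 and -0.73), A430093F15Rik (-0.28 ± 0.12, 0.41 and 0.12), Gm30054 (-0.82 ± 0.12, 0.59 and -0.22), 2610204G07Rik (-0.74 ± 0.14, 0.76 and 0.02) and Gm47015 (-0.52 ± 0.19, -0.29 and -0.81). Some of these genes were named because their interaction or antibody difference was among the largest. The count of 50 is therefore partly set by the naming and is not a share of the members. Among all genes tested the interaction was called for 16.6% (WT IL-2), 14.9% (H16R) and 34.5% (3x). The 3 sets share the PBS mice, so they are not independent. Pairs with a group under 5 CPM are left out, because the rule that chose the members bears on them.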

How the results depend on the processing

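All counts are of members past the threshold, and the settings beyond those planned (the member list with empty cells as 0, the share without Malat1 and Xist, TMM sizes for Treg against Tcon, and members at 5 CPM or more in each group compared) were chosen after seeing the data. Of 23 comparisons, most counts stayed within 1.5 times under other scalings, filters, tools and thinning. The exceptions were as follows. Fitting only the groups compared gave 22 between the antibodies in PBS Tregs and 19 for 3x against H16R with isotype. Without a filter on low counts, H16R against WT IL-2 with isotype gave 13 and WT IL-2 in Tcons 37. At an adjusted p under 0.05, MHC II block against isotype after H16R gave 25, 3x against H16R with MHC II block 27, WT IL-2 in Tcons 32 and 3x in Tcons 31. The members' median share of counts was 0.468% without Malat1 and Xist. No named gene changed direction among 198 pairs of gene and comparison, 162 passed the threshold with each library left out, and 39 lost it under some other alternative. The cause was not tested.

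Leaving out 1 library at a time, the counts ranged from 70 to 81 (WT IL-2), 88 to 99 (H16R) and 84 to 99 (3x) with isotype and from 37 to 50, 112 to 135 and 119 to 141 with MHC II block. MHC II block against isotype ranged from 30 to 45 (PBS), 41 to 62 (WT IL-2), 24 to 54 (H16R) and 80 to 111 (3x). H16R against WT IL-2, 3x against WT IL-2 and 3x against H16R ranged from 10 to 27, 30 to 53 and 5 to 15 with isotype and from 73 to 112, 93 to 126 and 28 to 49 with MHC II block. The interactions ranged from 17 to 27 (WT IL-2), 20 to 49 (H16R) and 74 to 105 (3x). In Tcons the ranges were 32 to 113 (WT IL-2), 47 to 111 (H16R), 28 to 73 (3x) and 46 to 92 (MHC II block).

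Replicate numbers did not pair the Treg libraries, since the median correlation of deviations from the group means was 0.021 for the same number and -0.001 for different ones. With the replicate block the counts were 78, 98 and 94 with isotype, 135 for 3x with MHC II block, 93 for the 3x interaction and 65, 96, 55 and 66 in Tcons, and 196 of 198 named pairs kept their call.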
